A study of Mus musculus with 4 samples.

Results

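The genes described here encode the T cell receptor complex and the proteins that carry its signal over the first steps inside the cell. They were taken from a list of 44 genes: the receptor chains and co-receptor, surface accessory molecules, tyrosine kinases, adaptors, a phospholipase with its exchange factors, inhibitory phosphatases and ubiquitin-linked proteins, and the branches to NF-κB, Ras and NFAT. Where several probe sets named 1 gene, the one with the highest mean stood for it. Of the 44 genes 43 had a value, among 18193 genes in all. Lck was not analysed here.

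When the receptor binds antigen, tyrosines in the CD3 and zeta chains are phosphorylated by Src family kinases and bind the kinase ZAP-70. ZAP-70 phosphorylates the adaptors LAT and Lcp2, which gather Tec family kinases and phospholipase C gamma. The phospholipase then makes diacylglycerol, which acts on Ras and on protein kinase C theta, and a second messenger that releases calcium and so activates NFAT through calcineurin. In helper T cells the strength of this signal is known to bias which effector fate the cell takes, and it acts beside the cytokine signals carried by STAT proteins.

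Expression was measured in CD4+ T cells from C57BL/6J mice with the OT2 receptor transgene, cultured for 72 h on antibodies against CD3 and CD28 with IL-6 (20 ng/ml), TGF-β (2 ng/ml) and an antibody against IL-4, a condition that favours the Th17 fate. The STAT3 wild type group was stat3 fl/fl OT2 and the STAT3-deficient group CD4-Cre stat3 fl/fl OT2, both with IL-2 neutralised by an antibody at 10 ug/ml. The STAT5 wild type group was stat5 fl/fl OT2 and the STAT5-deficient group CD4-Cre stat5 fl/fl OT2, both with IL-2 added at 100 IU/ml. All cells started as sorted naive CD4+CD44-CD62L+ cells, all carried a transgenic receptor, and Cre was driven by the CD4 promoter, so deletion began before the culture. The labels give no age for the mice. There were 4 arrays, 1 per group, so no difference has a replicate, an error or a test, which bounds the precision of all that follows. The receptor itself was the stimulus in every culture, so the values describe cells already signalling through it.

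Levels are the deposited values on a log2 scale, where a difference of 1 is 2-fold, and a gene is called higher or lower from that size on. Levels under 6.20, the median of all values, are treated as low, and a difference with one side under it is uncertain in size. Of 18193 genes, 12439 had at least 1 level above 6.20 and were compared, among them all 43 signalling genes. For Trat1 and Vav3 only the STAT3-deficient array was above 6.20, so they entered through the array where they were high. Without that filter the count of 43 stayed and the share of all genes called without STAT3 went from 10.1% to 9.11%. The labels' genotype text of both deficient samples ends in the words for wild type, against their titles. Stat3 went from 12.87 to 9.93 in the STAT3 pair, and Stat5a from 10.92 to 5.91 and Stat5b from 11.33 to 6.09 in the STAT5 pair, each lower on the array titled deficient. The array medians lay between 6.10 and 6.34. Of a CD4 T cell identity list, 9 of 10 genes had a value, all 9 were past the filter, and 0 differed by 2-fold in any comparison, their mean level lying between 12.29 and 12.55. The shares of all genes compared were 10.1% without STAT3, 3.60% without STAT5 and 5.30% between controls, so 0 of 9 is close to them. Of these 9, 7 are themselves among the signalling genes, and the other 2 were Cd28 and Thy1. With the wild type first, Cd28 was at 12.18 and 11.22 in the STAT3 pair and 11.42 and 11.67 in the STAT5 pair. Thy1 was at 12.93 and 13.22 and at 13.01 and 13.04 in the same order. With loess centring Cd28 was past 2-fold between controls, at -1.02. The defining markers of B cells (3 of 7 past the filter), myeloid cells (3 of 10), mast cells (2 of 6) and erythroid cells (0 of 3) had mean levels of 5.04 to 5.83 on every array. NK cell (2 of 4) and gamma delta T cell (3 of 3) markers had means of 5.49 to 6.77, and CD8 T cell markers (3 of 3) 6.34 to 7.18. Among these other markers, Crtam was 2-fold apart in all 3 comparisons (-0.90 between controls with arrays centred) and Kit, a mast cell marker, was higher without STAT3 (5.67 and 7.42); their part in the results was not tested.

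Without STAT3, 7 of the 43 signalling genes differed by 2-fold or more (16.3%), against 10.1% of all genes compared. Trat1, Vav3, Rasgrp1 and Sla were higher (4 of 43, against 2.85% of all genes) and Tec, Malt1 and Txk were lower (3 of 43, against 7.24%). Without STAT5, 5 differed (11.6%, against 3.60%), with Rasgrp3, Sla and Txk higher (1.86% of all genes) and Malt1 and Dgka lower (1.74%). Between the wild-type controls, where IL-2 was added in one culture and neutralised in the other, 4 differed (9.30%, against 5.30%), with Trat1 higher with IL-2 (2.35% of all genes) and Rasgrp3, Txk and Cblb lower (2.95%). With arrays centred on their medians the control count was 3 (6.98%, against 6.60% of all genes), with Cd69 and Trat1 higher and Rasgrp3 lower. Its share was then near that of all genes. The STAT3 count was then 9 (20.9%, against 8.88%), 6 higher and 3 lower. With loess centring the 4 control calls stayed past 2-fold, at 2.34 for Trat1, -3.51 for Rasgrp3, -1.33 for Txk and -1.25 for Cblb. Cd69 was then at 0.75 between controls, so the control result depends on the kind of centring. The controls also come from different floxed lines, so IL-2 and the line cannot be told apart. The remaining 33 genes stayed within 2-fold in all 3 comparisons. The 10 that were 2-fold apart in any comparison made up 23.3% of the 43, against 14.5% of all genes. The list is short and was chosen with earlier results of these data known. The shares of the 43 and of all genes are therefore set side by side only as a description.

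The median signalling gene differed by -0.08 without STAT3 (-0.20 over all genes), by 0.02 without STAT5 (0.06 over all genes) and by -0.19 between controls (0.06 over all genes). Centring each array on its median moved the all-gene medians to 0.04, 0.00 and 0.25, a shift of over 0.1 in the first and last comparison, and the signalling medians to 0.16, -0.04 and 0.00. With loess centring the signalling medians were 0.05, -0.04 and -0.30, against 0.00 over all genes in each comparison. The signs of the signalling medians without STAT3 and without STAT5 therefore depend on scaling. The signalling median between controls was below 0 or near it under each scaling, and its size depends on scaling. Over the 4 arrays the median signalling gene spanned 0.80, against 0.65 for all genes, and 11 of the 43 spanned under 0.5.

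**Figure D1:**
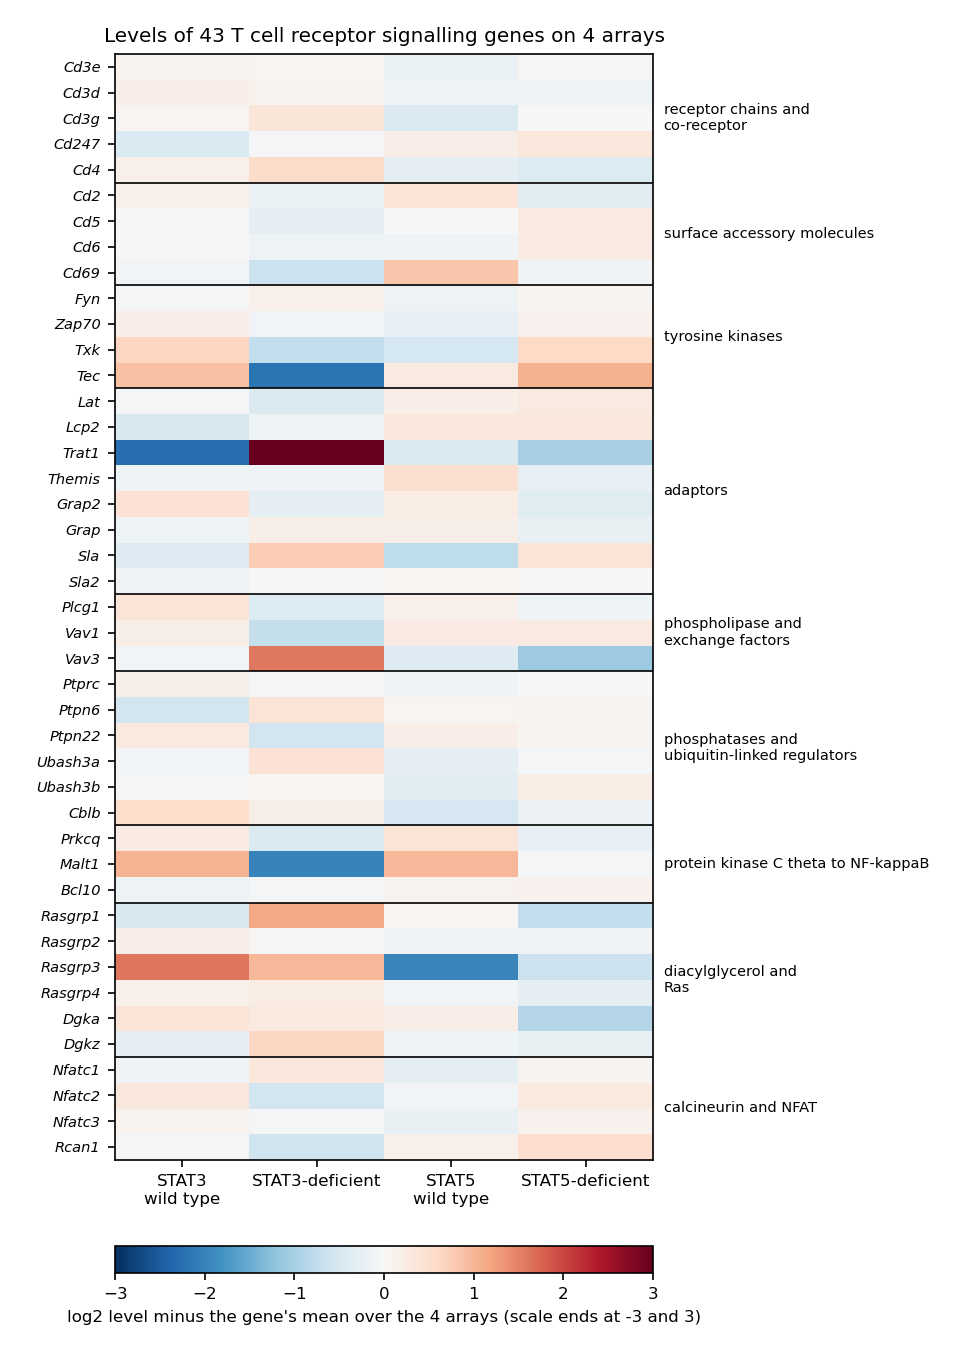
Each row is 1 of the 43 genes and each column 1 array (1 culture per group); colour is the log2 level minus the gene's mean over the 4 arrays, on a scale ending at -3 and 3, with rows grouped by role. Most rows are pale, while Trat1, Tec, Malt1 and Vav3 stand out in the STAT3-deficient column and Rasgrp3 divides the left pair of arrays from the right pair.

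The sequences upstream of 4 of these genes are shown for the widest difference up and down without STAT3 (Trat1 and Tec), the gene that went opposite ways in the 2 deletions (Txk) and the one 2-fold gene with a match to the STAT binding motif (Rasgrp1). Each is the 250 bases before the gene's most upstream start in RefSeq (GRCm38.p6), read on the gene's strand, which is minus for all 4: Trat1 at chr16:48772063-48772312, Tec at chr5:72868449-72868698, Txk at chr5:72752778-72753027 and Rasgrp1 at chr2:117342878-117343127. Capitals mark TTCNNNGAA, the palindromic core that STAT dimers are known to bind, which reads the same on both strands.
Trat1: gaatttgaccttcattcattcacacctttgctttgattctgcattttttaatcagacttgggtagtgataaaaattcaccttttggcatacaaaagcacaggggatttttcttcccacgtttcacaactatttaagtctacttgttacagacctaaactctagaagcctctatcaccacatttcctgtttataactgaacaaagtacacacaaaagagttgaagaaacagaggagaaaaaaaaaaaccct
Tec: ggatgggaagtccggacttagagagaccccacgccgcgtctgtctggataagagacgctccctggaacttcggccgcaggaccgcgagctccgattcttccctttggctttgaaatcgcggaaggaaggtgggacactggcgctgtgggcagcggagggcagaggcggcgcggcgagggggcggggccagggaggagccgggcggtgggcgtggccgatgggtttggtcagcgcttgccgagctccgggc
Txk: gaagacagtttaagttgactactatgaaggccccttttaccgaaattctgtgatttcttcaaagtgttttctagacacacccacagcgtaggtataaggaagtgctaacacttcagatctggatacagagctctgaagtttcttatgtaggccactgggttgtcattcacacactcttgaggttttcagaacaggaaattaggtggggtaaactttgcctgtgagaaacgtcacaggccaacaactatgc
Rasgrp1: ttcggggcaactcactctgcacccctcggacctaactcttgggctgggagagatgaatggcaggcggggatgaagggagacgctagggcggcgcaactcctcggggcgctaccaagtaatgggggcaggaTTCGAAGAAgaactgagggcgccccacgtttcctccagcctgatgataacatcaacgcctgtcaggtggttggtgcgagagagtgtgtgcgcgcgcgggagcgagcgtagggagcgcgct
The match in Rasgrp1 starts 120 bases before the gene's start, and the windows of Trat1, Tec and Txk hold none. RefSeq windows were found for 34 of the 43 genes, and 4 of them (11.8%) had the motif in at least 1 window: Cd3d, Ptpn22, Ubash3b and Rasgrp1. Over all 27025 genes in the table the share was 8.13%, and over all 32851 windows 7.02%. The AP-1 core TGANTCA, also its own reverse complement, was in windows of 2 of the 34 (5.88%, against 7.82% of all genes), Vav3 and Rcan1. These are matches of letters in a short window and describe no binding.

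The receptor chains and the co-receptor differed by less than 2-fold in all 15 of their values. Of all genes compared, 10.1% were 2-fold apart without STAT3, 3.60% without STAT5 and 5.30% between controls. Staying within 2-fold was therefore the rule among all genes too, for this group and for those below. Cd3e, a CD3 chain needed for assembly of the complex, was at 12.15 in STAT3 wild type, 12.11 in STAT3-deficient, 11.84 in STAT5 wild type and 12.09 in STAT5-deficient cells. Cd3d was at 13.16, 13.08, 12.84 and 12.81 in the same order. Cd3g was at 11.73, 12.03, 11.24 and 11.69, lowest in the STAT5 wild-type culture. The order of the arrays thus differed between chains whose proteins join one complex. Cd247, which encodes the zeta chain, was at 9.53, 9.93, 10.19 and 10.33, with both cultures given IL-2 above both without it (0.66 between controls). Its 2 next probe sets by level differed by 0.62 and 0.54 between controls. Cd4, the co-receptor for class II MHC, was at 11.46, 11.84, 11.00 and 10.88, with both IL-2 cultures lower (-0.45 between controls). In bulk RNA, fewer cells of a type and less RNA per cell cannot be told apart. No value of this group reached 2-fold with arrays centred.

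The surface accessory molecules also stayed within 2-fold, with Cd69 closest to it. Cd69, an early activation antigen, was at 9.20, 8.63, 10.12 and 9.17, so the STAT5 wild-type array was the highest. It differed by 0.92 between controls, by -0.95 without STAT5 and by -0.57 without STAT3. With array median centring it passed 2-fold without STAT5 and between controls. With loess centring it did so without STAT5 (-1.01) but not between controls (0.75). Cd2, an adhesion receptor that costimulates, was at 12.80, 12.44, 13.03 and 12.32 (-0.72 without STAT5). Cd5 and Cd6, scavenger receptor family proteins that tune receptor signals, lay within 0.56 and 0.42 over all 4 arrays.

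Among the kinases, the Tec family members were 2-fold apart while Zap70 and the Src family kinase gene Fyn did not reach 2-fold. Tec was at 11.28 in STAT3 wild type, 8.21 in STAT3-deficient, 10.68 in STAT5 wild type and 11.47 in STAT5-deficient cells. The STAT3-deficient array was 2.47 below the next lowest, and the difference in its pair was -3.07 (8.41-fold lower). Only 0.812% of all genes were farther apart in that pair, and without STAT5 Tec was at 0.79. Txk, a Tec family kinase of resting T cells that acts on phospholipase C gamma, was at 9.77, 8.38, 8.58 and 9.72. It was lower without STAT3 (-1.39, 2.62-fold) and higher without STAT5 (1.13, 2.20-fold). The STAT3-deficient and STAT5 wild-type arrays were thus the low pair, close to each other, and the remaining arrays the high pair. Txk was also lower with IL-2 between controls (-1.19), a difference that shares an array with each deletion. It fell short of 2-fold at -0.99 with array median centring and stayed past it at -1.33 with loess centring. Tec and Txk have 1 probe set each, so neither can be set against another. Zap70 was at 12.13, 11.87, 11.68 and 12.08, and Fyn, which acts beside Lck, at 11.15, 11.37, 11.05 and 11.29, spanning 0.45 and 0.31.

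The adaptors included the widest difference of the list, in Trat1, which encodes a transmembrane adaptor that associates with the receptor complex. Trat1 was at 3.84 in STAT3 wild type, 9.82 in STAT3-deficient, 5.67 in STAT5 wild type and 5.10 in STAT5-deficient cells. The STAT3-deficient array alone was above 6.20, and lay 4.14 over the next. The difference without STAT3 was 5.98 (62.9-fold), wider than that of all but 0.0402% of genes compared, and uncertain in size because the control was low. Its other probe set went from 4.41 to 8.48 (4.07). Without STAT5 the values were low on both arrays (-0.57). The 1.83 between controls also lies between low values, and the other probe set gave 0.34 there.

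Sla, which encodes an adaptor that promotes loss of receptor complexes from the surface, was higher without either STAT. It was at 9.93, 11.09, 9.56 and 10.70, and both deficient arrays were above both controls. The differences were 1.15 without STAT3 (2.23-fold) and 1.14 without STAT5 (2.20-fold). Its other 3 probe sets gave 1.15, 1.76 and 0.40 without STAT3, and 0.91, -0.11 and 0.90 without STAT5. Averaged over probe sets, the difference without STAT5 was 0.71, short of 2-fold. The related gene Sla2 spanned 0.16, the smallest range of the list, with values of 8.14, 8.25, 8.30 and 8.25.

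The scaffold adaptors stayed within 2-fold. Lat was at 13.03, 12.66, 13.29 and 13.35, lowest without STAT3 (-0.37). Lcp2 was at 11.59, 11.90, 12.38 and 12.40, with both IL-2 cultures higher (0.79 between controls), although its other probe set differed by 0.19. Grap2, which links Lat to Lcp2, was at 7.98, 7.24, 7.76 and 7.17, and both deficient arrays were below their controls (-0.74 and -0.59), as they were at its other probe set (-0.41 and -0.29). Themis, a protein of thymocyte selection that binds phosphatases, was at 9.85, 9.85, 10.46 and 9.71. It was highest in STAT5 wild type, and the difference without STAT5 was -0.75, with -0.42 to -0.72 at its other 3 probe sets. Grap spanned 0.40.

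Of the phospholipase and exchange factors, Vav3 was higher without STAT3. Vav3 was at 5.98, 7.64, 5.67 and 4.98, and the STAT3-deficient array was 1.66 over the next. That difference (1.66, 3.16-fold) starts from a low control. Its 2 other probe sets gave 2.35 and 0.93. Vav1, the main Vav protein of blood cells, was at 9.39, 8.51, 9.45 and 9.49, so it lay on the other side of its control without STAT3 (-0.89), short of 2-fold. Plcg1, the phospholipase, was at 11.42, 10.62, 11.20 and 10.92 (-0.80 without STAT3). Its other probe sets, both low, gave -1.29 and -0.93, and the average over probe sets was -1.004, past 2-fold.

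The inhibitory proteins stayed within 2-fold in both deletions. Ptpn6, a phosphatase that damps receptor signals, was at 10.41, 11.36, 11.02 and 11.03 (0.95 without STAT3), and passed 2-fold there under both centrings, whereas its other probe set differed by 0.21. Ptpn22, a phosphatase acting on Src family kinases, was at 12.34, 11.48, 12.25 and 12.12 (-0.86 without STAT3). The phosphatase genes thus lay on opposite sides of their control. Cblb, a ubiquitin ligase that restrains T cell activation, was at 10.99, 10.64, 9.96 and 10.28. It was lower with IL-2 between controls (-1.03, 2.05-fold), or by -0.84 with array median centring, which is short of 2-fold. With loess centring it was at -1.25 there, past 2-fold. Its other 2 probe sets gave -1.29 and -1.42. Ptprc, which encodes CD45, spanned 0.29 at the probe set used. Its other probe set was at 8.54, 8.39, 7.30 and 7.23, and differed by -1.24 between controls, past 2-fold. Ubash3a and Ubash3b, which encode a related pair of proteins that oppose receptor kinases, lay within 0.72 and 0.55 over the arrays.

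On the branch from protein kinase C theta to NF-κB, Malt1 was lower without either STAT. Malt1, the protease of the complex that joins the receptor to NF-κB, was at 12.02, 8.97, 11.97 and 10.94. The STAT3-deficient array was 1.98 below the next lowest, and the controls were within 0.05 of each other. The difference was -3.06 without STAT3 (8.31-fold lower) and -1.03 without STAT5 (2.04-fold lower). The other 2 probe sets gave -2.38 and -2.32 without STAT3, and -0.41 and -0.74 without STAT5, where the average of -0.73 was short of 2-fold. Bcl10, its partner in the complex, was at 10.26, 10.34, 10.51 and 10.53, spanning 0.27. Prkcq, which encodes protein kinase C theta, was at 11.42, 10.73, 11.57 and 10.92, below its control in both deletions (-0.68 and -0.65) but short of 2-fold. Bcl10 was thus level across arrays where Malt1 was not, and Prkcq lay between them.

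The genes acting on diacylglycerol and Ras differed one by one. Rasgrp1, the exchange factor that turns diacylglycerol into Ras activation in T cells, was at 8.12, 9.76, 8.67 and 7.87. The STAT3-deficient array was 1.09 over the next, with a difference of 1.63 (3.11-fold) in its pair, and the STAT5 pair differed by -0.79. Its other probe sets gave 1.53, 1.34 and 0.37 without STAT3. Rasgrp3, a related exchange factor also known from B cells, was at 9.25, 8.65, 5.67 and 7.01. Both cultures with IL-2 neutralised were above both with IL-2 added, and the controls differed by -3.58 (11.97-fold lower with IL-2), farther than all but 0.0563% of genes. The second probe set gave -2.60. Without STAT5 Rasgrp3 was higher by 1.34 (2.53-fold), and by 1.31 at the second probe set. That difference starts from a low level of 5.67, so its size is uncertain, and it shares the STAT5 wild-type array with the control comparison. The mean level of the B cell markers was 5.56, 5.43, 5.37 and 5.83 in the same order, lowest in STAT5 wild type as for Rasgrp3. Of the 3 past the filter, Blk differed by -0.76 between controls and 0.66 without STAT5, and Pax5 by -0.49 and 0.12. Cd79b differed by 0.42 and 0.23. Of these 3, 0 were 2-fold apart, as were only 5.30% and 3.60% of all genes in these comparisons. A part of B cells in the Rasgrp3 values was not tested.

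Dgka, a kinase that consumes diacylglycerol and is known from anergic T cells, was at 12.02, 11.94, 11.83 and 10.75. The STAT5-deficient array was 1.08 below the next lowest, and the difference in its pair was -1.08 (2.11-fold lower), at the gene's only probe set. Dgkz, which acts on the same substrate, was at 11.74, 12.61, 11.86 and 11.78, highest without STAT3 (0.88, and 0.85 at its other probe set), and passed 2-fold there with arrays centred. The diacylglycerol kinase genes thus stood apart on different arrays. Rasgrp2 and Rasgrp4 spanned 0.31 and 0.53 and lay near the filter, with highest levels of 6.36 and 6.91.

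The calcineurin and NFAT genes stayed within 2-fold. Nfatc1 was at 10.32, 10.73, 10.13 and 10.49, above its control in both deletions (0.40 and 0.36). Nfatc2 was at 10.84, 9.93, 10.42 and 10.78, lowest without STAT3 (-0.91), and all 6 of its probe sets lay below 0 there. Nfatc3 spanned 0.35. Rcan1, a calcineurin inhibitor whose own transcription NFAT drives, was at 8.60, 8.03, 8.78 and 9.13 (-0.57 and 0.34). Without STAT5 the probe sets used for these 4 genes gave 0.34 to 0.36, but others past the filter lay below 0, at -0.32 for Nfatc1, -0.81 and -0.08 for Nfatc2 and -0.15 for Nfatc3.

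**Figure D2:**
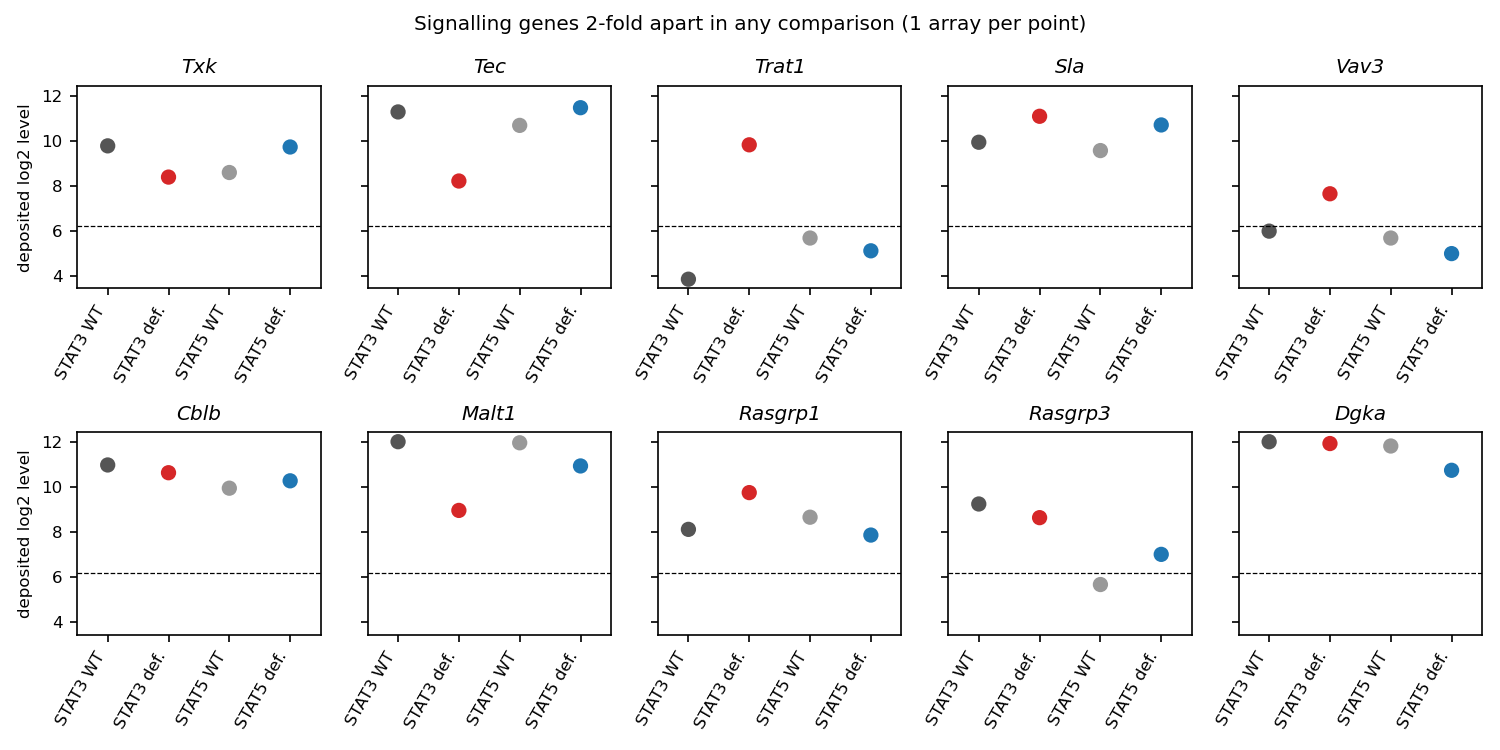
Each panel is 1 of the 10 genes 2-fold apart in any comparison, and each point the deposited log2 level on 1 array; WT is wild type, def. is deficient, and the dashed line is 6.20. Tec and Malt1 are lowest, and Trat1, Vav3 and Rasgrp1 highest, on the STAT3-deficient array, while Txk is low on the STAT3-deficient and STAT5 wild-type arrays.

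**Figure D3:**
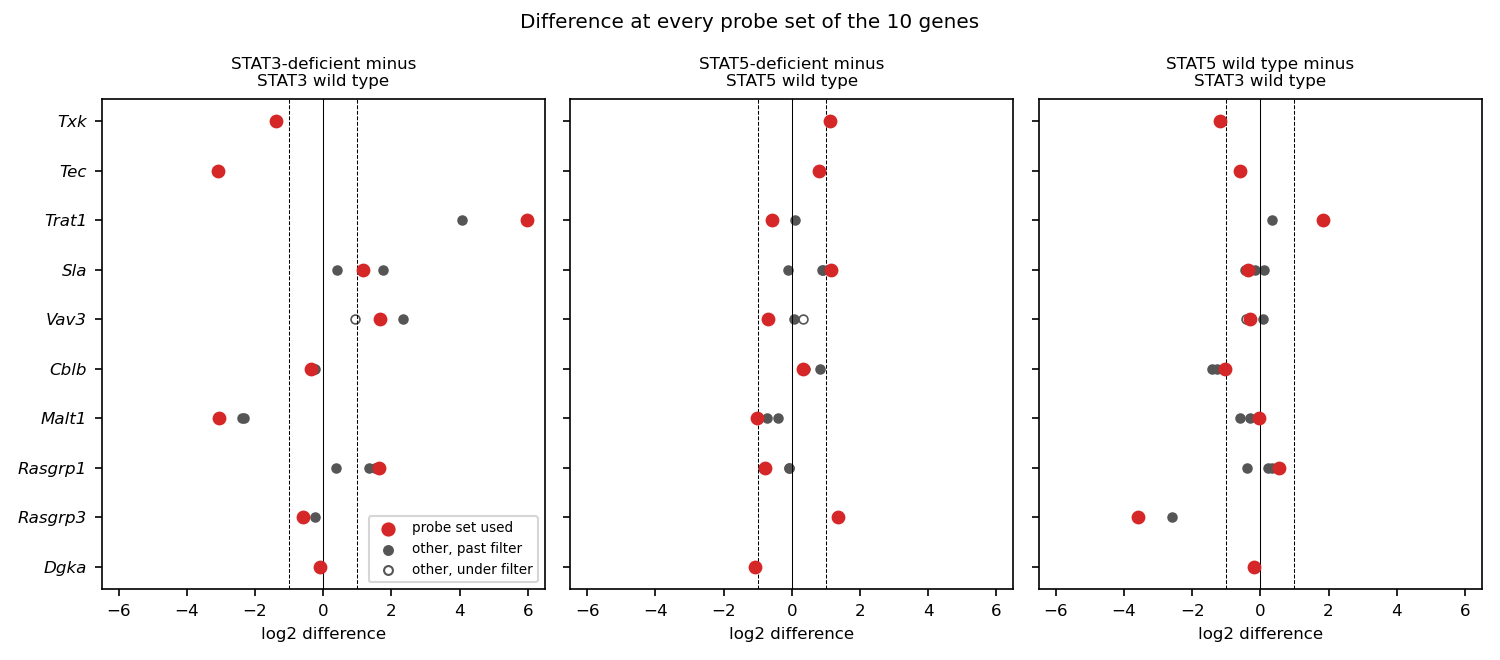
Each point is the log2 difference at 1 probe set of the 10 genes, in the 3 comparisons; red points are the probe sets used, filled grey points others past the filter, open points others under it, and dashed lines mark 2-fold. Malt1, Trat1 and Rasgrp3 keep their direction at every probe set in the comparison where they differ most, while the probe sets of Sla spread from -0.11 to 1.14 without STAT5.

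Wide ranges were often set by 1 array. An array lay 2-fold beyond all 3 others for 7 of the 43 genes (16.3%), against 6.44% of all genes. The STAT3-deficient array was the one above for Trat1, Vav3 and Rasgrp1 and below for Tec and Malt1, 5 of the 43 genes (4.61% of all genes lay above or below on that array). The STAT5-deficient array was below for Dgka (0.651% of all genes above or below), and the STAT5 wild-type array for Rasgrp3 (0.707%). For Trat1 the STAT3 wild-type array (0.941% of all genes) was also 1.26 below the next, among low values. The deletions share no array, so their differences were set against each other. Of the 43 genes, 19 had the same sign in both (44.2%, against 50.1% of all genes), and Pearson's r was -0.16 across the 43 genes and 0.08 across all genes, which are descriptions across genes that share libraries and are not independent replicates. Sla and Malt1 were 2-fold apart in the same direction in both deletions, and Txk in opposite directions.

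**Figure D4:**
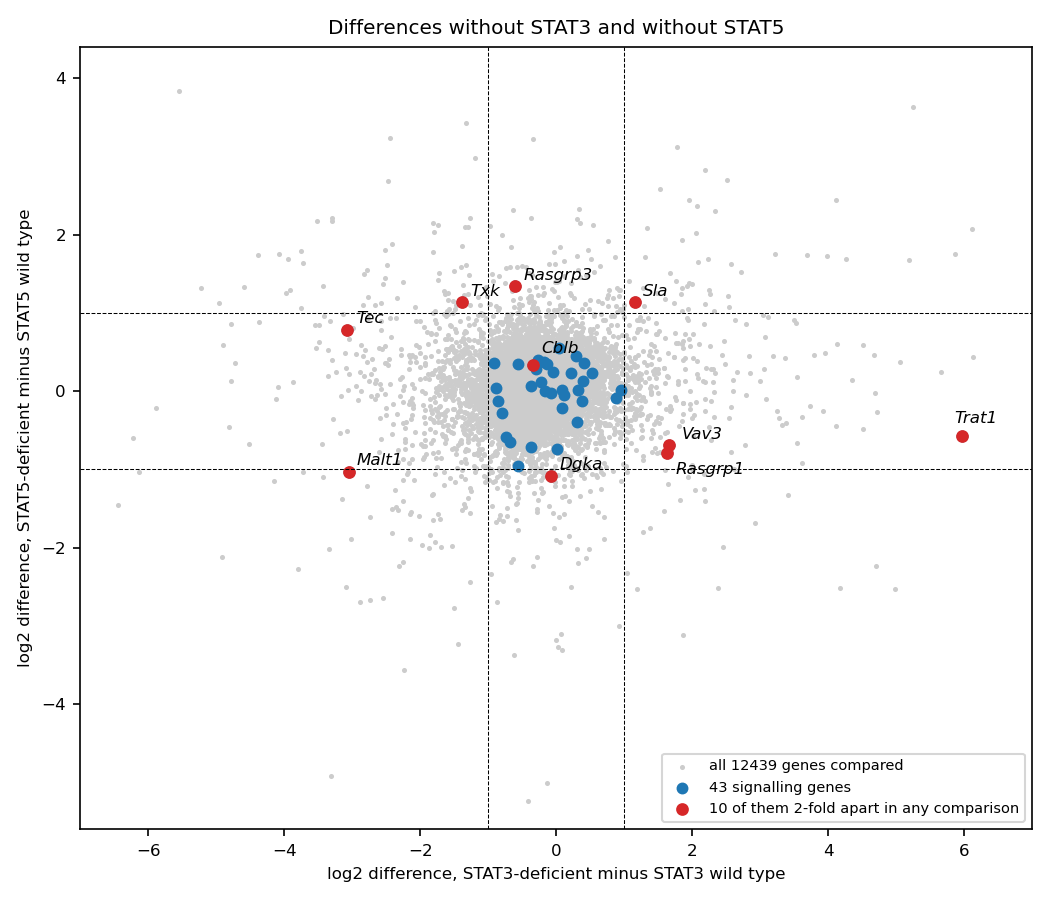
Each point is 1 gene, with its log2 difference without STAT3 on the x axis and without STAT5 on the y axis; grey points are all 12439 genes compared, blue points the 43 signalling genes, red points the 10 that were 2-fold apart in any comparison, and dashed lines mark 2-fold. Trat1 lies far to the right at 5.98 and -0.57, Tec and Malt1 to the left, and Txk alone of the 43 is in the upper left corner.

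Other genes of the pathway were taken from a list of 98, of which 86 had a value and 83 were past the filter. That list too was chosen with earlier results of these data known. Without STAT3, 13 of the 83 were 2-fold apart (15.7%, against 10.1% of all genes), 3 higher and 10 lower, with a median of -0.25. Without STAT5, 3 were (3.61%, against 3.60%), and between controls 3 (3.61%, against 5.30%), both near or below the share of all genes. With arrays centred the STAT3 count was 10 (12.0%, against 8.88% of all genes), 4 higher and 6 lower, and with loess centring 9 (10.8%, against 8.67%). The 3 calls without STAT5 were 1 higher and 2 lower, or 0 and 3 with arrays centred, and the 3 between controls were 1 higher and 2 lower, or 3 and 0. By branch, 4 of the 10 lower genes were proximal kinases and adaptors, 3 were phosphatases or ubiquitin ligases and 3 belonged to calcium signalling, while 0 of 14 Ras and MAP kinase genes and 0 of 10 phosphoinositide 3-kinase genes were 2-fold apart.

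Itpr3, a calcium release channel opened by the product of the phospholipase, was at 11.17, 9.24, 10.65 and 10.24, lowest without STAT3 (-1.93, 3.80-fold). Atp2b4, a calcium pump of the plasma membrane, was at 8.12, 6.48, 8.13 and 7.87 (-1.64), and the adaptor gene Shb at 7.55, 5.84, 7.62 and 7.44 (-1.70). All 3 thus had the STAT3-deficient array as their lowest, with the other arrays close together for Atp2b4 and Shb but not for Itpr3. Sh2d1a, which encodes the adaptor of SLAM family receptors, was at 8.21, 10.00, 9.15 and 9.24, higher without STAT3 (1.79, 3.46-fold). Gab2, an adaptor that recruits phosphatases and phosphoinositide 3-kinase, was at 8.68, 6.36, 8.99 and 6.76, lower without either STAT (-2.32 and -2.23). The probe set used for Gab2 is of a kind that can match several transcripts: without such probe sets the differences were -0.28 and 0.0029. With its 3 probe sets averaged they were -1.48 and -1.04, still past 2-fold. Traf6, a ubiquitin ligase on the NF-κB branch, was at 8.75, 8.84, 10.00 and 8.64, so the STAT5 wild-type array stood alone (1.25 between controls and -1.35 without STAT5). Tnfaip3, which encodes the NF-κB inhibitor A20, was at 10.76, 11.25, 10.62 and 11.67 (1.05 without STAT5, or 0.99 with arrays centred). Phlpp1 and Pik3ip1, which oppose Akt and phosphoinositide 3-kinase, were lower with IL-2 between controls (-1.09 and -1.01). Both were short of 2-fold with array median centring (-0.89 and -0.82) and past it with loess centring (-1.06 and -1.12).

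**Figure D5:**
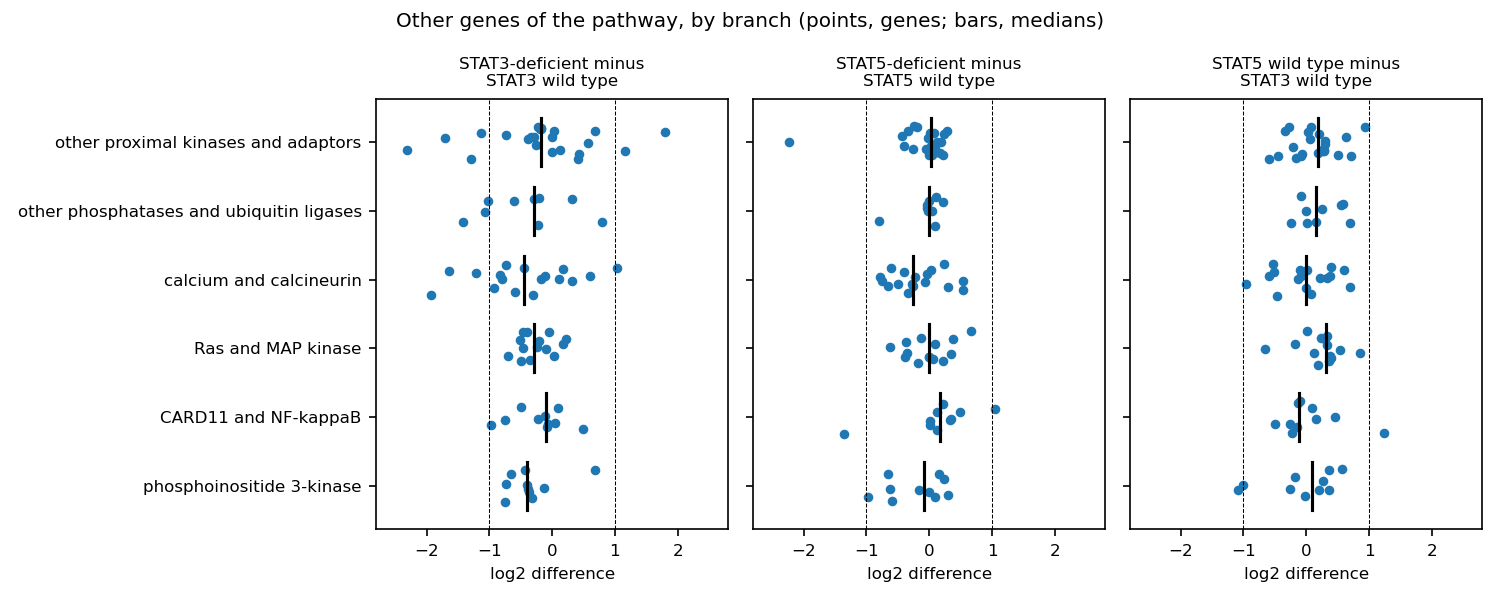
Each point is 1 of the 83 other pathway genes past the filter, placed by its log2 difference in the 3 comparisons and by branch, with vertical scatter added only to separate points; black bars are branch medians and dashed lines mark 2-fold. Points past 2-fold are most frequent on the lower side of the STAT3 comparison, where 10 lie, and few elsewhere.

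Tec and Txk are also next to each other in the genome, so their neighbours were examined, with those of the other 8 genes. In the order of protein-coding genes in RefSeq (GRCm38.p6), Nipal1, Txk, Tec and Slain2 follow one another. Without STAT3, Nipal1, a magnesium transporter gene, differed by -3.09, Txk by -1.39, Tec by -3.07 and Slain2 by -0.02. A run of 3 adjacent genes was thus lower, ending at Slain2. Without STAT5 the same genes differed by 0.30, 1.13, 0.79 and 0.23. Alpk2, beside Malt1, was lower in both deletions as Malt1 was (-3.02 and -1.89), whereas Zfp532 on the other side of Malt1 differed by -0.32 and 0.37. Between controls Alpk2 differed by 1.37 and Malt1 by -0.05. Beside Sla, Tg and Ccn4 were higher without STAT3 (1.86 and 2.84) and within 2-fold without STAT5 (0.40 and 0.44). Beside Vav3 and Rasgrp1, both higher without STAT3, Slc25a24 and Thbs1 were lower (-1.40 and -1.52). Fam98b, on the other side of Rasgrp1, differed by 0.31. Alcam, beside Cblb, differed by 0.78 between controls and Fam98a, beside Rasgrp3, by 0.03. Cdk2 and Pym1, beside Dgka, differed by 0.22 and 0.15 without STAT5, and neither neighbour of Trat1 was past the filter. Adjacent genes therefore went the same way in some places and opposite ways in others.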

How the data were processed

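Biotin-labelled total RNA of 4 cultures was hybridised to Affymetrix mouse arrays, 1 per group. The values deposited by the authors, 1 per probe set, were read as log2 because they run from 2.48 to 15.09; their log base, summarisation, background correction and centring were not stated, and another base would change every fold. Affymetrix Power Tools made them, per the submitters' processing notes. Groups come from the titles.

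Of 45101 probe sets, 34945 name 1 gene in the platform annotation, 932 several and 9160 none, beside 64 controls; only those naming 1 gene were used. All 96 probe sets of the signalling genes carry the RefSeq symbol of their Entrez identifier. The filter, differences and calls (Python 3.11.15, pandas 2.3.3) were tested on simulated data. With 1 array per group there is no test. Alternatives were the mean of probe sets, leaving out probe sets ending in _s_at, _x_at or _a_at, no filter or one at percentile 75 (8.29), array median centring, loess centring (span 0.4) and thresholds of 1.5-fold and 3-fold. Genes given with all 4 levels were those 2-fold apart in any comparison and 12 fixed ones, except Lck, which was fixed but not analysed. Further members with 4 levels, and the neighbouring genes, were chosen after their values were seen. Up to 5 other pathway genes per comparison were named by size. The genes and lists were chosen with earlier results of these data known.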

Additional observations from a re-analysis of the deposited data

Results flagged for a closer look

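Txk was picked out because it lay past 2-fold in opposite directions in the 2 deletions, at -1.39 without STAT3 and 1.13 without STAT5. The difference between the deletions was not tested, since each rests on 1 array per group, and Txk has 1 probe set.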

How the results depend on the processing

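No paired analysis was possible because each group has 1 array. Of 360 alternative values for the 30 named genes with a value, 347 kept their side of 2-fold, 10 fell short of it and 2 passed it. The remaining one, Gab2 without STAT5, lost its call and its sign, at 0.00289 without probe sets of several possible transcripts. A further 22 values under 2-fold also changed sign, among them Vav3 without STAT5, from -0.69 to 0.07 without such probe sets. At 1.5-fold, 16, 13 and 10 of the signalling genes were called without STAT3, without STAT5 and between controls, and 30, 14 and 14 of the other pathway genes, against 24.9%, 11.6% and 20.8% of all genes. At 3-fold, 5, 0 and 2 of the signalling genes and 5, 1 and 0 of the other pathway genes were called, against 4.20%, 1.15% and 1.42% of all genes. With probe sets averaged, 3 signalling genes were called without STAT5 in place of 5 (7.14%, against 3.01% of all genes). Array median centring moved the signalling median without STAT3 to 0.16, from -0.08. All other counts stayed within 1.5 times their main values, and every other median moved by less than the median spread between probe sets of a gene (0.17 to 0.23). No calls of presence over background entered, beyond the level of 6.20.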
